A study of Arabidopsis thaliana with 27 samples.

Results

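The loci described here are the transfer RNA (tRNA) and ribosomal RNA (rRNA) genes of the Arabidopsis thaliana plastid genome, followed in a small RNA data set of dark-grown hypocotyls. Members were all rows of the deposited count table for all small RNAs whose name begins with tRNA or rRNA followed by a plastid locus number (ATCG). This gave 42 of the 2071 loci in the table, 8 of them rRNA and 34 tRNA. All 42 were matched to a plastid gene of the RefSeq annotation of TAIR10.1, 22 by symbol and 20 by symbol together with the order of neighbouring genes. By that annotation 8 of the tRNA loci carry an intron and 26 do not, and 20 loci form 10 pairs of identical copies.

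The series holds 27 libraries in 9 groups of 3, made from 3 genotypes and 3 treatments. The genotypes were uvr8-6, mutant in the UV-B photoreceptor UVR8, xpf-3, mutant in the XPF endonuclease of nucleotide excision repair, and wild type (WT) Columbia-0. Each mutant is 1 allele, and nothing in the labels says that replicates were grown apart, so a p-value here measures the spread between samples that may be technical repeats. Treatments were a dark control and UV-B at 3000 or 30000 µmol per square metre, called the lower and the higher dose. All groups, controls included, were sown on 0.5x MS medium with the gibberellin GA4 at 100 µM and kept in darkness for 2.5 days, then returned to darkness after any exposure. The extraction protocol places harvest of the etiolated hypocotyls 6 hours after UV-B, whereas the series title says 2 days. Small RNA libraries were prepared with the Clontech SMARter kit. The table holds no messenger RNA, so neither the genotypes nor the hypocotyl label could be checked against marker genes. The plastid label itself rests on the locus numbers alone.

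Plastids keep a small genome of bacterial descent, with its own ribosomes and a set of tRNAs that decode plastid messages. The rRNA genes lie in an operon within a large inverted repeat, in the order 16S, trnI, trnA, 23S, 4.5S and 5S, with trnR after it, so that each of these genes is present as a pair of copies. Several plastid tRNA genes are split by a long intron that has to be spliced out, and the intron of trnK encloses matK, the gene of a plastid splicing factor. In the dark the plastids of a hypocotyl are etioplasts, which hold ribosomes but no chlorophyll-containing thylakoids. Small RNA reads at such loci are short pieces of these transcripts, or short transcripts read in part, and do not measure the intact molecule.

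The spliced sequences of the loci on which the results turn are given here from RefSeq TAIR10.1, 5′ to 3′ on the strand of the gene, as reference for the names used below. In the first set, the tRNAs that carry an intron, capitals mark the second exon, so the change from lower case to capitals is the splice junction. TRNI.2 has an identical copy TRNI.3, and TRNA.1 an identical copy TRNA.2.
TRNK (tRNA-Lys, minus strand): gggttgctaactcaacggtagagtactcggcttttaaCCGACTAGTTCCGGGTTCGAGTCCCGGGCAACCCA
TRNG.1 (tRNA-Gly, plus strand): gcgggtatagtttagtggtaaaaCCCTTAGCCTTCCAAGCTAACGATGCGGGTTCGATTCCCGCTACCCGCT
TRNL.1 (tRNA-Leu, plus strand): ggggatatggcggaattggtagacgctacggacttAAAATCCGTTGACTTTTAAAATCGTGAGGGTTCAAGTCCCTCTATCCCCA
TRNV.1 (tRNA-Val, minus strand): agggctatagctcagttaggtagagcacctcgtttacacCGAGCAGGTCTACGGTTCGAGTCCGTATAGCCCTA
TRNI.2 (tRNA-Ile, plus strand): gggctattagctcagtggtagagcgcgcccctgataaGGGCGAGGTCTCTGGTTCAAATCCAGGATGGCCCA
TRNA.1 (tRNA-Ala, plus strand): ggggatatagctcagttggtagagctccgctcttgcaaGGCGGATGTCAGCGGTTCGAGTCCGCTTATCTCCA

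The spliced lengths of these tRNAs are 72 to 85 bases, and the introns are far longer. The intron measures 2559 bases in TRNK, 801 in TRNA.1, 729 in TRNI.2, 714 in TRNG.1, 599 in TRNV.1 and 512 in TRNL.1. Whether reads in an intron were counted toward its locus is not given in the sources used here, so a count at these 8 loci may include pieces of intron, of precursor and, for TRNK, of the matK message.

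The second set shows tRNAs without an intron, and the 5S rRNA, that differed between uvr8-6 and WT past the threshold of the test used below. TRNR.2 has an identical copy TRNR.3, and the 5S rRNA is present as ATCG00970 and ATCG01160.
TRNT.1 (tRNA-Thr, plus strand): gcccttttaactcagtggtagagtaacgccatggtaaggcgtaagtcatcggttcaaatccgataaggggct
TRNH (tRNA-His, minus strand): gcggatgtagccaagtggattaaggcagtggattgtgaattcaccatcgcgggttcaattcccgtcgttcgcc
TRNR.2 (tRNA-Arg, plus strand): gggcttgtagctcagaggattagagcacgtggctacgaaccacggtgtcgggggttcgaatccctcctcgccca
TRNM (tRNA-Met, plus strand): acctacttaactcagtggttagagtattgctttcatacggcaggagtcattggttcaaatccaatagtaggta
RRN5S (5S rRNA, the copy on the minus strand): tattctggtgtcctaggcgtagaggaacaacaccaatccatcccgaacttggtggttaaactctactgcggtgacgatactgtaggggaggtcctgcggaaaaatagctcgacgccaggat

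Copies are called identical by their spliced sequence, and reads that lie within it cannot be told apart. Total counts of the copies of a pair differed by at most 2.41% of their mean in 8 of the 10 pairs. The exceptions were TRNL.2 and TRNL.4 (16.9%) and TRNR.2 and TRNR.3 (6.98%). The source of these differences was not tested. Copies are therefore named together where they are described, and the count of changed features is also given with copies summed.

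Libraries held 681228 to 1970871 counts over all loci, of which plastid rRNA made up 0.756 to 4.31% and plastid tRNA 0.293 to 0.851%. In bulk tissue, fewer plastids or plastid-rich cells and less RNA in each cannot be told apart. Of the summed plastid counts, RRN23S.1 and RRN23S.2 held 21.1% each, RRN4.5S.1 and RRN4.5S.2 7.89 and 7.88%, RRN16S.1 and RRN16S.2 7.19% each, and the RRN5S copies 2.75% each. TRNK was the most counted tRNA locus, with 5.52% of plastid counts and 25.0% of plastid tRNA counts. At the low end, the identical tRNA-Ile loci TRNI.1 and TRNI.4 had 42 and 41 counts in all 27 libraries together. They were the only members below the filter on low counts, so 40 of the 42 were tested, among 1109 loci in all.

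In 5 libraries the counts of 16S rRNA (the RNA of the small ribosomal subunit) relative to 23S rRNA (the large subunit) stood above the others. The ratio was 0.536 in xpf-3 higher-dose replicate 3, 0.638 in xpf-3 dark replicate 2, 0.734 and 0.863 in WT higher-dose replicates 1 and 3 and 0.577 in WT dark replicate 1. In the other 22 libraries it was 0.200 to 0.395. Mitochondrial rRNA held 1.47% of counts in xpf-3 higher-dose replicate 3, 1.76% in xpf-3 dark replicate 2, 2.09 and 2.06% in WT higher-dose replicates 1 and 3 and 2.29% in WT dark replicate 1. In the other 22 libraries it held 0.693 to 1.74%, the most in uvr8-6 higher-dose replicate 1, whose 16S to 23S ratio was 0.279. No uvr8-6 library was among the 5, and results that change without them are given both ways.

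The main difference between genotypes was in uvr8-6. Averaged over the 3 treatments, loci of intron-carrying tRNAs had higher counts in uvr8-6 than in WT. Several tRNAs without an intron had lower counts, and the 5S rRNA was higher. The mean of the 3 treatments was compared, with 9 libraries of each genotype, by edgeR's quasi-likelihood test with Benjamini-Hochberg adjustment over the 1109 loci, and a locus was called at an adjusted p under 0.05. In this comparison 18 of 40 plastid loci were called, 10 higher and 8 lower, where over all loci tested the share called was 30.5%, with 14.3% higher and 16.1% lower. The uvr8-6 libraries thus differed widely outside the plastid genome too. Among the tRNA loci with an intron 7 of 8 were called higher and none lower, with a median log2 change of 0.72. These include identical copies, and with copies summed 5 intron features were called higher and 0 lower. In the dark alone the median of the intron loci was 0.18, and 1 of 8 was called. Among tRNA loci without an intron 1 of 24 was called higher and 8 lower, with a median of -0.40. Among rRNA loci 2 of 8 were called higher. The median over all 1109 loci was -0.025.

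**Figure D1:**
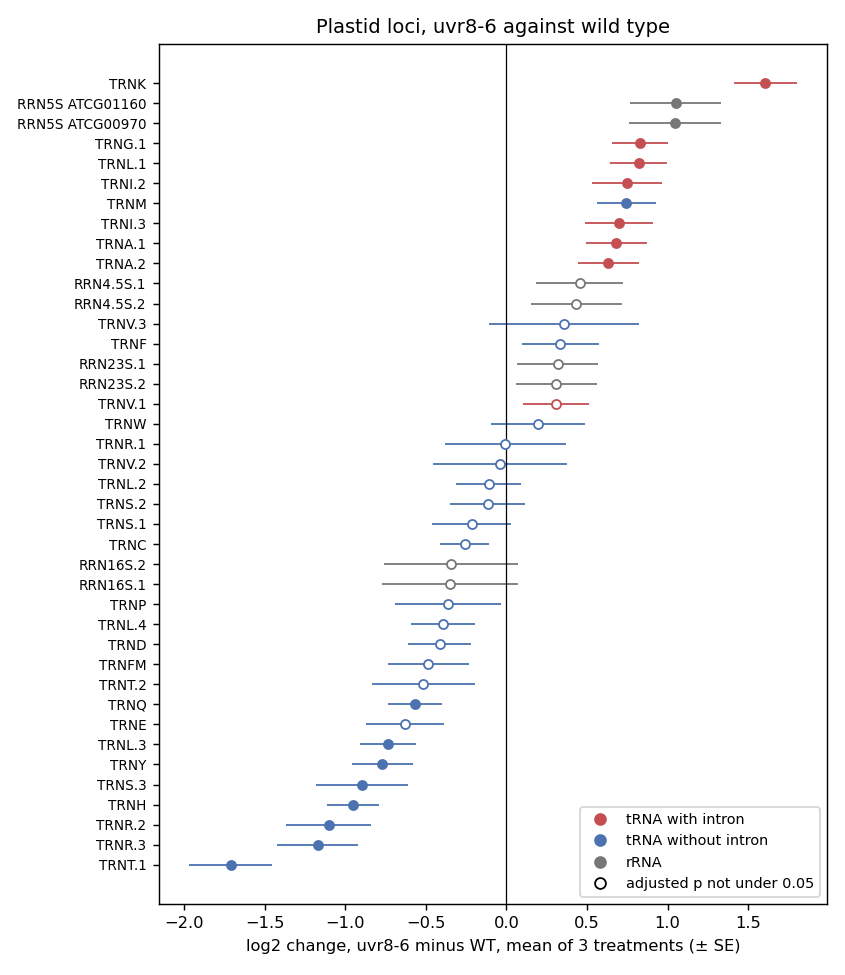
Log2 change of the 40 tested plastid loci, uvr8-6 minus WT as the mean of the 3 treatments (x axis; points with standard error, n = 9 libraries each), ordered by size, with colours for tRNA with intron, tRNA without intron and rRNA and open symbols for loci not called. TRNK stands highest at 1.61 and TRNT.1 lowest at -1.71, and 7 of the 8 intron loci are called on the higher side.

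TRNK, the tRNA-Lys locus whose intron holds matK, showed the largest rise. Its normalised CPM (counts scaled to a common library size with TMM factors) ran from 1223 over a median of 2093 to 3218 in the 9 uvr8-6 libraries, against 412, 761 and 1133 in the 9 WT libraries. The 2 sets did not overlap, and the log2 change was 1.61 ± 0.20 (SE, n = 9 each, edgeR adjusted p = 6.42e-06). By treatment, TRNK stood at 1787, 1920 and 2990 CPM in dark uvr8-6 libraries, against 1133, 761 and 1045 CPM in dark WT. After the lower dose it stood at 2093, 1223 and 2217 CPM in uvr8-6, against 701, 876 and 937 CPM in WT. After the higher dose it stood at 1806, 3218 and 2256 CPM in uvr8-6, against 432, 448 and 412 CPM in WT. Every uvr8-6 library was above every WT library of the same treatment. The xpf-3 libraries covered 486 to 1409 CPM and overlapped WT.

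The other single-copy intron loci were called with smaller changes, apart from TRNV.1. TRNG.1 (tRNA-Gly) had 354 to 875 CPM with a median of 721 in uvr8-6, against 216 to 620 CPM with a median of 423 in WT, a log2 change of 0.83 ± 0.17 (SE, n = 9 each, edgeR adjusted p = 0.00114). TRNL.1 (tRNA-Leu) had 356 to 742 CPM with a median of 566 in uvr8-6, against 202 to 584 CPM with a median of 332 in WT, a log2 change of 0.82 ± 0.18 (SE, n = 9 each, edgeR adjusted p = 0.00147). Both loci overlapped between the genotypes, with WT dark replicate 1 at the top of the WT range. The difference was smaller in the dark than after the higher dose. TRNG.1 averaged 620 CPM in uvr8-6 and 512 CPM in WT in the dark, against 773 and 243 CPM after the higher dose. TRNL.1 had 566 to 742 CPM in uvr8-6 and 336 to 584 CPM in WT in the dark. After the higher dose it had 492 to 701 and 202 to 217 CPM. TRNV.1 (tRNA-Val) averaged 264 CPM in uvr8-6 and 218 CPM in WT, with a log2 change of 0.31 ± 0.20 that was not called (edgeR adjusted p = 0.294).

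The intron tRNAs of the rRNA operon were also called higher in the mean of the treatments. TRNI.2 and TRNI.3 (tRNA-Ile) each averaged 268 CPM in uvr8-6, against 169 and 175 CPM in WT, with log2 changes of 0.75 ± 0.21 and 0.70 ± 0.21 (SE, n = 9 each, edgeR adjusted p = 0.0112 and 0.0149). TRNA.1 and TRNA.2 (tRNA-Ala) averaged 184 and 187 CPM in uvr8-6, against 120 and 125 CPM in WT, with log2 changes of 0.68 ± 0.19 and 0.63 ± 0.19 (edgeR adjusted p = 0.00917 and 0.0145). In these 4 loci WT dark replicate 1 stood far above the other WT libraries, at 350 CPM in TRNI.2 and 271 CPM in TRNA.1, and the libraries of the genotypes overlapped. In the dark alone, with copies summed, uvr8-6 and WT differed by a log2 change of 0.16 ± 0.37 for tRNA-Ile and 0.029 ± 0.33 for tRNA-Ala (SE, n = 3 each). Neither was called there.

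The 8 tRNA loci called lower in uvr8-6 all lack an intron. TRNT.1 (tRNA-Thr) had 7.29 to 25.7 CPM with a median of 19.1 in uvr8-6, against 35.5 to 89.7 CPM with a median of 54.9 in WT. No uvr8-6 library reached the lowest WT library, and the log2 change was -1.71 ± 0.26 (SE, n = 9 each, edgeR adjusted p = 6.94e-05). TRNT.1 and TRNK were the only members of 40 whose 9 libraries did not overlap between the genotypes, a share near the 5.68% of all loci tested. TRNH (tRNA-His) had 164 to 354 CPM with a median of 239 in uvr8-6, against 306 to 701 CPM with a median of 405 in WT, a log2 change of -0.95 ± 0.16 (edgeR adjusted p = 0.000191). Its ranges met only where dark uvr8-6 replicate 1 exceeded lower-dose WT replicate 1 and higher-dose WT replicate 2.

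The identical tRNA-Arg loci TRNR.3 and TRNR.2, which lie behind the rRNA operon, averaged 43.9 and 42.7 CPM in uvr8-6 and 99.8 and 91.1 CPM in WT, with log2 changes of -1.17 ± 0.25 and -1.10 ± 0.26 (SE, n = 9 each, edgeR adjusted p = 0.0014 and 0.00314). The other called tRNAs were TRNS.3 (tRNA-Ser, -0.90), TRNY (tRNA-Tyr, -0.77), TRNL.3 (tRNA-Leu, -0.74) and TRNQ (tRNA-Gln, -0.57), with edgeR adjusted p between 0.00293 and 0.0194. TRNE (tRNA-Glu), which in plastids also starts chlorophyll and haem synthesis, averaged 153 CPM in uvr8-6 and 231 CPM in WT, a log2 change of -0.63 ± 0.24 that was not called (edgeR adjusted p = 0.0573). TRNP (tRNA-Pro), another of the most counted tRNAs, averaged 202 CPM in uvr8-6 and 257 CPM in WT and was not called (log2 change -0.37 ± 0.33, edgeR adjusted p = 0.464).

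TRNM (elongator tRNA-Met) was the only tRNA locus without an intron that was called higher. It had 12.6 to 25.3 CPM with a median of 22.0 in uvr8-6, against 8.05 to 15.4 CPM with a median of 12.3 in WT and some overlap, a log2 change of 0.74 ± 0.18 (SE, n = 9 each, edgeR adjusted p = 0.00382). TRNM belongs to the tRNAs known to depend on SIG2, a nuclear-encoded sigma factor of the plastid RNA polymerase. Of that list of 4, TRNM alone was called, and TRNV.1, TRND and TRNE were not, so the list showed no common direction (median log2 change -0.054).

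The 15 other tested tRNA loci without an intron were not called, with log2 changes between -0.63 (TRNE) and 0.36 (TRNV.3). They include TRNFM, the initiator tRNA-Met, at 53.7 to 112 CPM with a median of 84.3 in uvr8-6, against 75.1 to 229 CPM with a median of 112 in WT (log2 change -0.49 ± 0.25, edgeR adjusted p = 0.161). TRND (tRNA-Asp) had 48.9 to 131 CPM in uvr8-6, against 81.4 to 153 CPM in WT (-0.41 ± 0.20, edgeR adjusted p = 0.131). The least counted of the tested loci were TRNT.2 (tRNA-Thr), TRNR.1 (tRNA-Arg) and the tRNA-Val copies TRNV.2 and TRNV.3, whose means lay between 9.28 and 11.7 CPM in uvr8-6 and between 7.92 and 13.6 CPM in WT. The log2 change of TRNT.2, which decodes threonine as TRNT.1 does, was -0.52 ± 0.32 (edgeR adjusted p = 0.248).

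**Figure D2:**
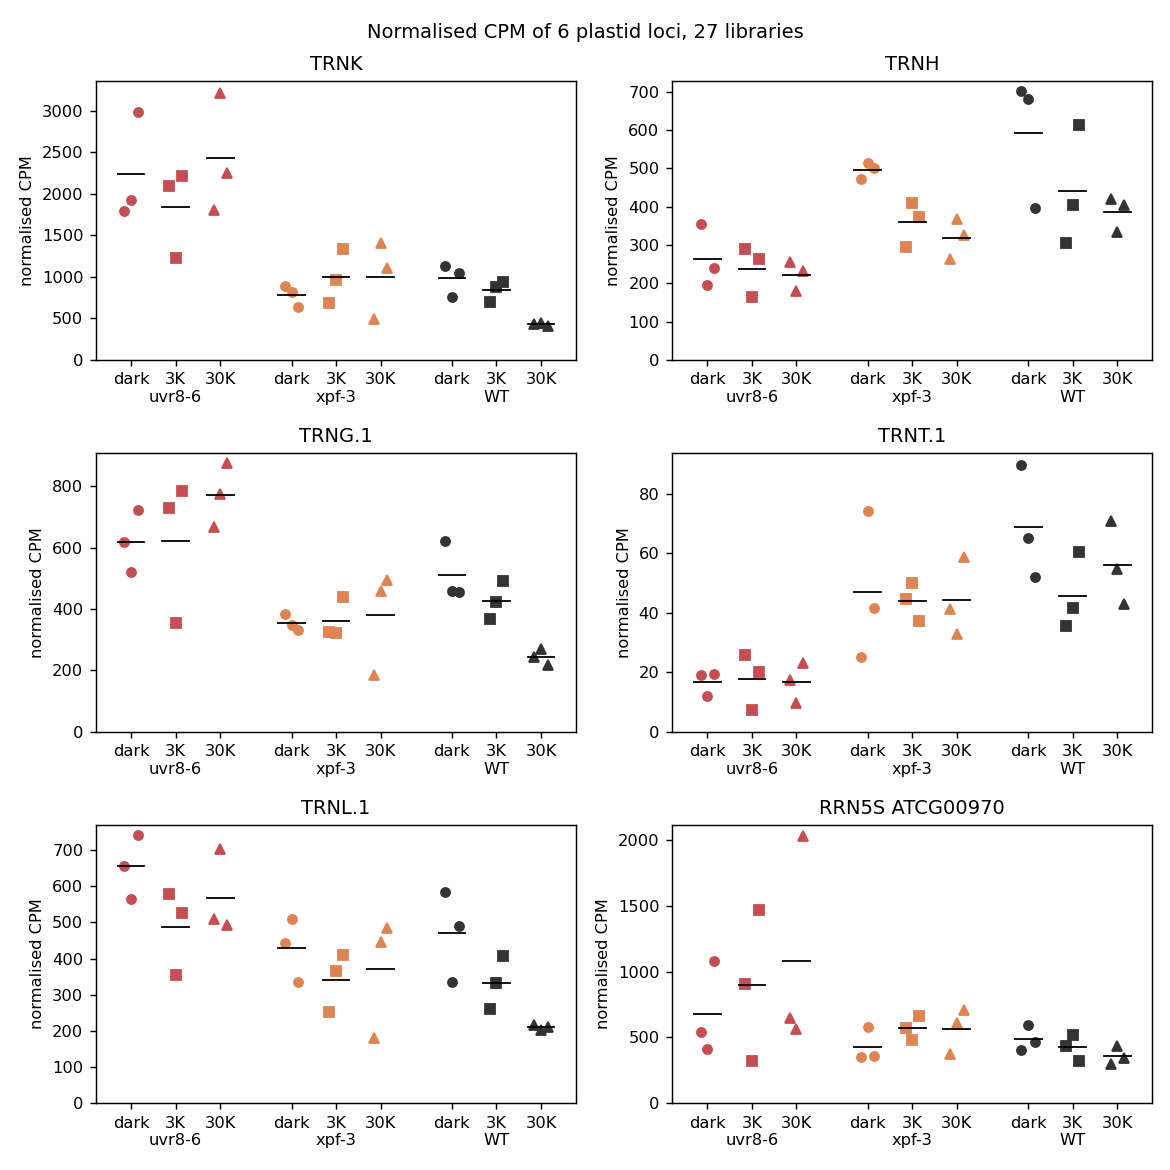
Normalised CPM (y axis, linear, from 0) of TRNK, TRNH, TRNG.1, TRNT.1, TRNL.1 and the 5S rRNA locus ATCG00970 in all 27 libraries, with 1 point per library, bars at group means, and groups ordered by genotype and dose (3K and 30K are the lower and the higher dose). The group means of TRNK and TRNG.1 are lowest in WT after the higher dose, and TRNT.1 is at 25.7 CPM or less in every uvr8-6 library.

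Among the rRNAs, the 5S rRNA of the large subunit was called higher. The locus RRN5S ATCG00970 had 323 to 2028 CPM with a median of 646 in uvr8-6, against 298 to 594 CPM with a median of 435 in WT, and the libraries overlapped. Its log2 change was 1.04 ± 0.29, and that of RRN5S ATCG01160 was 1.05 ± 0.28 (SE, n = 9 each, edgeR adjusted p = 0.00803 and 0.00753). Replicate 3 was the highest of its group in each uvr8-6 treatment, with 1079, 1464 and 2028 CPM. Without the 5 libraries of high 16S to 23S ratio, the log2 changes were 0.92 and 0.94 and neither was called (edgeR adjusted p = 0.118 and 0.112). The other rRNAs overlapped widely and were not called.

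RRN4.5S.1, the small rRNA that matches the 3′ end of bacterial 23S, had 621 to 4379 CPM with a median of 1641 in uvr8-6, against 1059 to 2003 CPM with a median of 1233 in WT (log2 change 0.45 ± 0.27, edgeR adjusted p = 0.233). RRN23S.1 had 2383 to 12714 CPM with a median of 5093 in uvr8-6, against 2782 to 5162 CPM with a median of 4163 in WT (0.32 ± 0.25, edgeR adjusted p = 0.388). RRN16S.1 had 563 to 3551 CPM with a median of 1261 in uvr8-6, against 675 to 3684 CPM with a median of 1046 in WT (-0.35 ± 0.42, edgeR adjusted p = 0.614). Without the libraries of high 16S to 23S ratio the last log2 change was 0.43. Those libraries were picked by that ratio and none is of uvr8-6, so a rise of this value was built into the choice. The fit without them therefore cannot decide its sign. Their copies RRN4.5S.2, RRN23S.2 and RRN16S.2 gave log2 changes of 0.43, 0.31 and -0.34.

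In total 15 loci were called without those 5 libraries, 8 higher and 7 lower. All 7 called intron loci and TRNT.1, TRNH and TRNM were among them, whereas TRNR.2, TRNR.3 and TRNS.3 were lost at log2 changes of -0.64, -0.69 and -0.76, as were both 5S loci. TRNE and TRNL.4 (tRNA-Leu), not called with all libraries, were called lower there, at log2 changes of -0.62 and -0.57 (edgeR adjusted p = 0.0425 and 0.0381). With identical copies summed and all libraries kept, 14 of 31 tested features were called, 7 in each direction. The pair of TRNL.4 and its identical copy TRNL.2 was not among them, at a log2 change of -0.22 ± 0.17 (edgeR adjusted p = 0.388). TRNL.2 by itself averaged 22.5 CPM in uvr8-6 and 23.2 CPM in WT.

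The genotype difference can also be read within each library, as the ratio of counts at the 8 intron loci to counts at the 26 loci without an intron. This ratio was chosen after the values had been seen and carries no test. It was 2.36 to 5.09 in the 9 uvr8-6 libraries, 0.788 to 2.10 in xpf-3 and 0.639 to 1.45 in WT, so that the uvr8-6 libraries lay above all 18 others. Without TRNK it was 1.32 to 2.32 in uvr8-6, 0.535 to 1.14 in xpf-3 and 0.435 to 0.960 in WT, and again did not overlap. Intron loci held 76.2% ± 4.59 of plastid tRNA counts in uvr8-6, 57.1% ± 7.18 in xpf-3 and 50.6% ± 7.76 in WT (SD, n = 9 each). The total share of plastid tRNA in all counts overlapped, at 0.334 to 0.722% in uvr8-6 and 0.293 to 0.617% in WT.

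**Figure D3:**
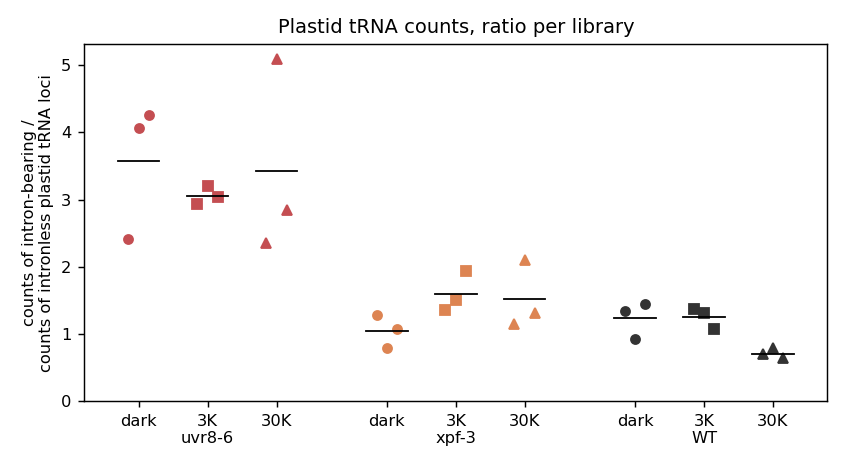
Ratio of counts at plastid tRNA loci with an intron to counts at those without (y axis, from 0), with 1 point per library, bars at group means, and groups ordered by genotype and dose. All 9 uvr8-6 libraries lie at 2.36 or above and all others at 2.10 or below, and the lowest group mean is that of WT after the higher dose.

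The nuclear shares of the libraries also differed between uvr8-6 and WT, with some overlap. Nuclear rRNA held 75.6 to 80.1% of counts in uvr8-6, against 68.1 to 76.5% in WT. Nuclear tRNA held 5.33 to 11.0% in uvr8-6, against 9.52 to 16.9% in WT. In xpf-3 these shares were 67.4 to 78.7% and 8.31 to 17.3%, and overlapped both. The part of the nuclear shares in the plastid differences was not tested. With library sizes taken from loci that are not rRNA, the same number of plastid loci was called (18, 10 higher and 8 lower). Of nuclear tRNA loci 78 of 440 were called, 31 higher and 47 lower, with a median log2 change of -0.0014. Of mitochondrial loci 5 of 12 were called, 1 higher and 4 lower.

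In the dark alone, uvr8-6 and WT differed in fewer loci, with 3 libraries each. TRNK was higher, and 4 tRNAs without an intron were lower. In all 5 of 40 were called, against 11.6% of all loci tested (4.78% higher, 6.85% lower). Of the 40, 11 had an unadjusted p under 0.05, against 283 of the 1109 loci tested. The log2 change of TRNK was 1.19 ± 0.34 (SE, n = 3 each, edgeR adjusted p = 0.0265). TRNT.1 had 19.1, 12.0 and 19.4 CPM in dark uvr8-6 libraries, against 89.7, 65.1 and 52.1 CPM in dark WT, a log2 change of -2.03 ± 0.45 (edgeR adjusted p = 0.00962). TRNH had 354, 195 and 239 CPM in dark uvr8-6, against 701, 681 and 398 CPM in dark WT, a log2 change of -1.17 ± 0.28 (edgeR adjusted p = 0.0137). For TRNY and TRNL.3 the log2 changes were -1.20 and -1.17. In 14 of 40 members the libraries did not overlap, against 27.2% of all loci tested. The median log2 change of the intron loci was 0.18 in the dark, against 0.72 in the mean of the treatments.

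These dark calls rest on few libraries and on the method, since over all loci DESeq2 called 231 of 988, against 129 of 1109 by edgeR. The number of plastid loci called was 0 without dark uvr8-6 replicate 2 and 1 without dark WT replicate 1. It was 2 without dark uvr8-6 replicate 3 or without dark WT replicate 2. It was 0 in a fit of these 6 libraries alone, 2 without the libraries of high 16S to 23S ratio, and 8 by DESeq2 (1 higher, 7 lower).

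No plastid locus differed between xpf-3 and WT at the threshold, in the dark or in the mean of the treatments, by edgeR or by DESeq2, and the share that edgeR called among all loci tested was also 0% in both comparisons. DESeq2 called 24 of 1277 loci in the dark and 20 of 1212 in the mean of the treatments, none of them plastid. At an unadjusted p under 0.05 in edgeR there were 0 plastid loci in the dark and 2 in the mean of the treatments. Over all 1109 loci there were 52 and 87. The nearest in the mean was TRNQ, with 43.8 to 98.6 CPM in xpf-3 against 63.1 to 113 CPM in WT, a log2 change of -0.49 ± 0.17 (SE, n = 9 each, edgeR adjusted p = 0.464). TRNK averaged 924 CPM in xpf-3 and 749 CPM in WT, a log2 change of 0.38 ± 0.19 (edgeR adjusted p = 0.705).

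In WT the intron loci had lower counts after the higher dose than in the dark, with none past the edgeR threshold. All 8 intron loci had lower counts in each of the 3 WT libraries after 30000 µmol per square metre than in any of the 3 dark WT libraries. Their log2 changes were -0.77 to -1.27 with a median of -1.15, against -0.26 for tRNAs without an intron, -0.24 for rRNAs and 0.015 for all loci tested. By edgeR none of the 40 members was called, against 1.89% of all loci tested (0.451% higher, 1.44% lower). At an unadjusted p under 0.05 there were 10, among them the 8 intron loci, against 169 of the 1109 loci tested. DESeq2 called 7, all of them intron loci with lower counts, against 111 of 1343 loci in all. These numbers count the identical copies TRNI.2 and TRNI.3, and TRNA.1 and TRNA.2, as separate loci. Summed, tRNA-Ile and tRNA-Ala changed by -1.24 and -1.06 and were not called (edgeR adjusted p = 0.0942 and 0.108). In 13 of 40 members the libraries did not overlap, 12 of them lower after UV-B, against 17.6% of all loci tested.

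The values behind this were close together after UV-B and wider in the dark. TRNL.1 had 217, 202 and 211 CPM after the higher dose, against 584, 336 and 491 CPM in dark WT, a log2 change of -1.16 ± 0.31 (SE, n = 3 each, edgeR adjusted p = 0.0563). TRNG.1 had 245, 269 and 216 CPM after the higher dose, against 620, 458 and 456 CPM in dark WT, a log2 change of -1.07 ± 0.30 (edgeR adjusted p = 0.0762). TRNK, with the values given above, had a log2 change of -1.19 ± 0.34 (edgeR adjusted p = 0.082). In all 3 loci the lowest dark library lay above the highest UV-B library. The ratio of intron to other tRNA counts was 0.702, 0.793 and 0.639 after the higher dose, against 1.34, 0.933 and 1.45 in dark WT. Of these libraries WT higher-dose replicates 1 and 3 and WT dark replicate 1 are among those of high 16S to 23S ratio. Without them 1 library of WT at the higher dose was left, and no locus was called.

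In the mutants the log2 change of most intron loci after the higher dose was positive, but dose and dark libraries overlapped at each of them. The xpf-3 libraries spread widely after that dose. At TRNK replicates 1, 2 and 3 had 486, 1409 and 1101 CPM, against 632 to 893 CPM in dark xpf-3. At TRNG.1 they had 186, 459 and 495 CPM, against 332 to 384 CPM. At TRNI.2 they had 126, 174 and 439 CPM, against 125 to 196 CPM. In uvr8-6 the median log2 change of the intron loci was 0.18 after the higher dose, with 7 of 8 positive, and in xpf-3 it was 0.37, with 6 of 8 positive. No plastid locus was called by edgeR in either, where the shares of all loci tested were 0.541% in uvr8-6 and 4.87% in xpf-3 (1.08% higher, 3.79% lower). Libraries of dose and dark did not overlap in 4 members in uvr8-6, all higher, and in 3 in xpf-3, all lower, against 16% and 27.2% of all loci tested. In each of them 3 plastid loci had an unadjusted p under 0.05, against 114 of all 1109 loci in uvr8-6 and 224 in xpf-3. DESeq2 called 0 plastid loci in uvr8-6 and 1, with lower counts, in xpf-3, against 52 of 1212 and 173 of 959 loci in all. The intron loci were not among those 3 in either mutant. In xpf-3 they were TRNR.3 and TRNR.2 (log2 changes of -1.31 ± 0.44 and -1.12 ± 0.45) and TRNH (-0.63 ± 0.28). In uvr8-6 they were TRNL.2 (1.04 ± 0.36) and the 23S copies (0.96 ± 0.44 and 0.97 ± 0.44). TRNL.4, the identical copy of TRNL.2, had 19.2, 13.4 and 16.1 CPM after that dose, against 15.3, 13.5 and 14.5 CPM in dark uvr8-6. Summed, this pair changed by 0.69 ± 0.30 and was not called (edgeR adjusted p = 0.42).

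The difference between responses was tested as an interaction. The response of TRNA.1 to the higher dose was more positive in uvr8-6 than in WT by a log2 value of 1.58 ± 0.47 (SE, n = 3 libraries in each of 4 groups, edgeR adjusted p = 0.546). That of TRNI.2 was more positive in xpf-3 than in WT by 1.87 ± 0.53 (edgeR adjusted p = 0.682). By edgeR no locus was called in either interaction, plastid or other (0%). With identical copies counted as separate loci, 8 plastid loci had an unadjusted p under 0.05 for uvr8-6, 7 of them intron loci. For xpf-3 there were 7, all intron loci. Over all 1109 loci there were 62 and 52. DESeq2 called 1 and 2 plastid loci, against 28 and 18 of 1245 loci in all. Both interactions and the WT comparison use the same 6 WT libraries, so their values are not independent of each other.

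**Figure D4:**
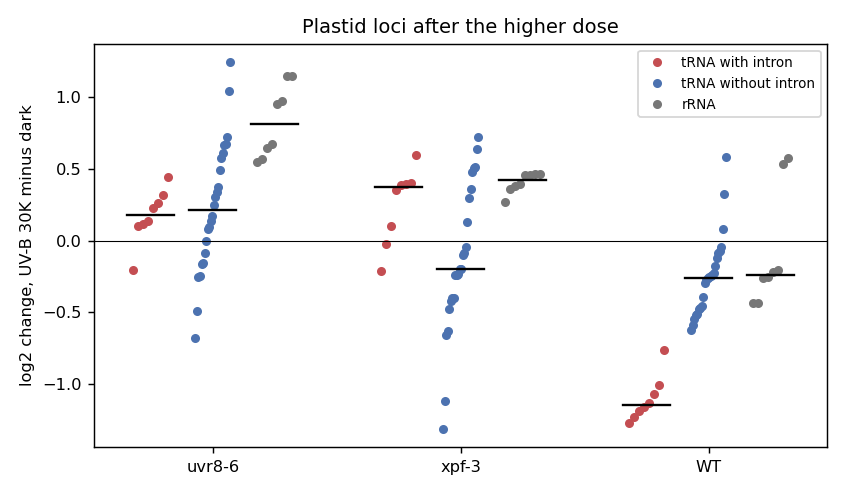
Log2 change of the 40 tested plastid loci after the higher dose relative to dark (y axis) in uvr8-6, xpf-3 and WT, with 1 point per locus, colours for tRNA with intron, tRNA without intron and rRNA, and bars at class medians. All 8 intron loci in WT lie between -0.77 and -1.27, and in uvr8-6 and xpf-3 their medians are 0.18 and 0.37.

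Averaged over the genotypes, 3 tRNA loci were lower after the higher dose. TRNH changed by -0.50 ± 0.16, TRNR.3 by -0.76 ± 0.25 and TRNL.1 by -0.53 ± 0.18 on the log2 scale (SE, n = 9 each, edgeR adjusted p = 0.0391, 0.0433 and 0.0458). TRNH averaged 309 CPM after the higher dose and 450 CPM in the dark, TRNR.3 63.3 and 109 CPM, and TRNL.1 383 and 518 CPM. The group means of all 3 were lower in each genotype. For TRNL.1, dose and dark libraries were apart only in WT, at 202 to 217 against 336 to 584 CPM. They overlapped in xpf-3 (182 to 486 against 334 to 509 CPM) and in uvr8-6 (492 to 701 against 566 to 742 CPM). TRNR.2, the identical copy of TRNR.3, had a log2 change of -0.76 ± 0.26 and was not called (edgeR adjusted p = 0.0517). The 3 calls of 40, all lower, stand beside 16.9% of all loci tested, 7.94% higher and 8.93% lower.

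These 3 calls stood close to the threshold. The number called was 0 without the filter on low counts, in a fit without the lower-dose libraries, or without the 5 libraries of high 16S to 23S ratio. It was 0 when any 1 of WT dark replicate 1, WT higher-dose replicate 1 or 2, xpf-3 dark replicate 2, xpf-3 higher-dose replicate 1, uvr8-6 dark replicate 1 or uvr8-6 higher-dose replicate 3 was left out. It was 1 when any 1 of WT higher-dose replicate 3, xpf-3 dark replicate 1, xpf-3 higher-dose replicate 3, uvr8-6 dark replicate 3 or uvr8-6 higher-dose replicate 2 was left out.

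The plastid rRNA share of counts varied most in the mutants after the higher dose. It was 3.15, 1.20 and 2.66% in uvr8-6, 1.45, 1.62 and 4.31% in xpf-3 and 1.94, 1.52 and 1.76% in WT after that dose. In the dark it was 1.19, 1.01 and 1.70% in uvr8-6, 1.09, 1.53 and 1.17% in xpf-3 and 1.73, 1.56 and 1.54% in WT. The ranges of the dose and dark groups overlapped in each genotype, and xpf-3 higher-dose replicate 3 held the largest share of any library. In the mean over genotypes all 8 rRNA loci had positive log2 changes, with a median of 0.31, and none was called. In uvr8-6 the median was 0.81. RRN23S.1 had 12714, 5093 and 5349 CPM in uvr8-6 after the higher dose, against 3912, 2870 and 5155 CPM in dark uvr8-6, a log2 change of 0.96 ± 0.44 (SE, n = 3 each, edgeR adjusted p = 0.476). Its higher-dose values overlapped the dark ones, and replicate 1 alone stood far above the rest. The same library held the highest values of the tRNA-Val loci that precede 16S in the operon, with 31.3 CPM for TRNV.2 and 43.3 CPM for TRNV.3, against 0.663 to 19.5 CPM and 0.872 to 12.1 CPM in the other 26 libraries.

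**Figure D5:**
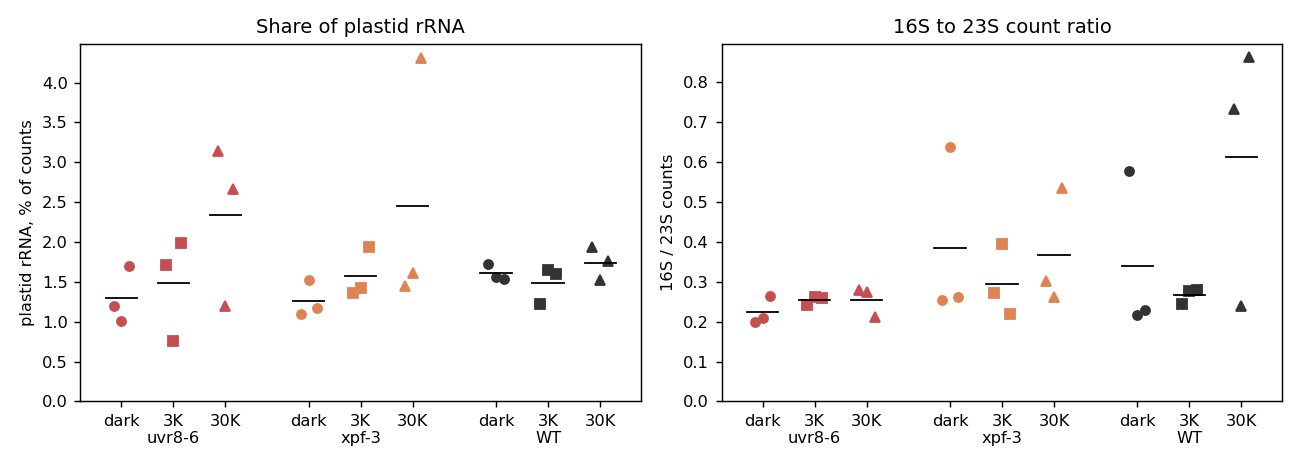
Plastid rRNA as a percentage of all counts (left, y axis from 0) and the ratio of 16S to 23S rRNA counts (right, y axis from 0), with 1 point per library, bars at group means, and groups ordered by genotype and dose. The share reaches 4.31% in a single xpf-3 library after the higher dose, and 5 libraries of xpf-3 and WT stand at a 16S to 23S ratio of 0.536 or more.

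After the lower dose no plastid locus was called in any genotype or in their mean by edgeR, against 0% of all loci tested in uvr8-6 and in WT, 0.541% in xpf-3 and 0.902% in the mean. At an unadjusted p under 0.05 there were 0 in uvr8-6, 2 in xpf-3, 0 in WT and 5 in the mean. Over all 1109 loci these numbers were 56, 163, 67 and 159. DESeq2 called 2 plastid loci in the mean, both lower, and 0 in each genotype. Over all loci it called 111 of 927 in the mean, 26 of 1670 in uvr8-6, 87 of 1180 in xpf-3 and 26 of 1085 in WT. Libraries did not overlap in 0 members in uvr8-6, 7 in xpf-3 and 1 in WT, against 9.2%, 18.5% and 11% of all loci tested. The nearest in the mean was TRNR.3, with a log2 change of -0.71 ± 0.25 (SE, n = 9 each, edgeR adjusted p = 0.164). It averaged 65.1 CPM after the lower dose and 109 CPM in the dark. The medians of the intron loci after the lower dose were 0.0014 in uvr8-6, 0.18 in xpf-3 and -0.34 in WT.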

How the data were processed

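Small RNA was measured in 27 libraries, grouped by the genotype and treatment labels and titles. The deposited table, made by the authors, holds whole-number read counts per annotated locus. Per the submitters' processing notes, FastQC and cutadapt were run on the reads before counting. Not given in the sources used here are the aligner, the genome build, the counting of intron reads and the handling of multiply matching reads. In all, 299 deposited columns were not used.

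Counts of the whole table were fitted with edgeR 4.0.16 under R 4.3.3, after TMM scaling and a filterByExpr minimum of 10 counts. The quasi-likelihood model had 9 group means and 18 residual degrees of freedom over 1109 loci. Calls used a Benjamini-Hochberg adjusted p under 0.05 over all loci of a comparison, and standard errors were derived from each log2 change and its F statistic. DESeq2 1.42.0, RLE factors, no filter, only the groups compared, library sizes without rRNA, copies summed, a replicate block and leaving out each library were tried. Seeing the data prompted a further fit without 5 libraries. Named loci were all rRNA loci, the 10 most counted tRNA loci, and called loci without overlap (for means, the same sign throughout); other printed loci were picked knowing their values. The members and lists were chosen with earlier results of these data known. On simulated data with 2-fold changes, 46.4% of changed loci were recovered in the comparison of uvr8-6 with WT over 3 treatments, and 1.56% in that of dark libraries, with 1058 loci tested. Pairs of replicates differed by a chi-square per degree of freedom of 32.2 to 178 (27 pairs), so none was the same library. Same-numbered libraries of different groups had a mean correlation of deviations of 0.02 (-0.15 to 0.21, 108 pairs). For different numbers it was -0.011 (-0.17 to 0.14, 216 pairs). Both were weak, so replicate numbers were not taken as pairs in the main fit, and a replicate block was tried as an alternative. Names and sequences came from RefSeq TAIR10.1, and no coordinates were used.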

Additional observations from a re-analysis of the deposited data

How the results depend on the processing

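The 18 plastid loci called between uvr8-6 and WT over the 3 treatments were 14 to 19 under every alternative, and 18 to 20 when 1 library was left out. For uvr8-6 against WT in the dark, 5 became 8 by DESeq2, 0 with only the groups compared, 2 without the 5 libraries of high 16S to 23S ratio, and 0 to 5 when 1 library was left out. For the higher dose in the mean of genotypes, 3 became 0 with no filter, 0 with only the groups compared, 0 without those 5 libraries, and 0 to 3 when 1 library was left out. Where 0 were called, DESeq2 called 7 for the higher dose in WT, 1 for it in xpf-3, 2 for the lower dose in the mean, 2 in the xpf-3 interaction and 1 in the uvr8-6 interaction, and library sizes without rRNA gave 1 for the higher dose in WT; leaving out 1 library gave 0 throughout. In those comparisons DESeq2 also called more over all loci than edgeR, as given with each of them above. The causes were not tested.

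With a replicate block, 18, 5 and 4 loci were called in the first 3 of these comparisons and 0 in the others. Samples share only a number: 16 of 27 libraries correlated best with their own, out of 3 possible. The named values counted next include rRNA values that were not called in the main fit and so had no call to lose. Of 33 named values, all kept direction and call under DESeq2, RLE factors, library sizes without rRNA and the replicate block, 8 lost the call with only the groups compared and 11 without the 5 libraries. The change of RRN5S ATCG00970 after the higher dose in the mean (0.21) ranged over -0.025 to 0.40 when 1 library was left out, with the negative value without uvr8-6 higher-dose replicate 3, and that of RRN16S.1 in uvr8-6 against WT (-0.35) was 0.43 without the 5 libraries. Neither was called. Depth limits loci such as TRNI.1 and TRNI.4, which had too few counts to test.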
